A study of Mus musculus with 16 samples.

Results

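Ribosome biogenesis factors are the proteins that make ribosomes without being part of the finished particle, together with the enzyme that transcribes ribosomal RNA. The 49 mRNAs described here were chosen by name from 30214 gene names on the array. They encode 6 RNA polymerase I subunits and partners, 3 proteins of the box C/D and 5 of the box H/ACA small nucleolar ribonucleoproteins, 17 small subunit factors, 16 large subunit factors and the nucleolar proteins Ncl and Npm1. All 49 were on the array, with 73 probes between them. Of these, 48 were tested, since the single probe of Utp18 was well above background on 0 of the 16 arrays.

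The arrays came from AML12 cells, a mouse hepatocyte line derived from a mouse with a human TGF-alpha transgene. The cells carried either a scramble or an eIF6 shRNA, each induced by doxycycline, and all cultures were stimulated with insulin for 1 h. The insulin was 100 nM in one label and 100 mM in another. Cytoplasmic extracts were run on sucrose gradients, and subpolysomal and polysomal RNA were hybridized separately on one-colour Agilent arrays. This gave 4 groups of 4 arrays, namely scramble subpolysomal, scramble polysomal, eIF6 shRNA subpolysomal and eIF6 shRNA polysomal. All groups share doxycycline and insulin, so neither agent has a comparison here, and the sources used here do not say whether the cells were a clone or a pool. The study describes the experiment as biological quadruplicates.

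In the nucleolus, RNA polymerase I transcribes a long precursor of ribosomal RNA. Box C/D and box H/ACA particles guide its methylation and pseudouridylation, and the small subunit processome, which holds the U3 snoRNA, folds and cuts the part that becomes 18S rRNA. Other factors assemble the large subunit around the remaining rRNAs, and a last set of enzymes matures both particles in the cytoplasm. eIF6 itself acts late on this route. It is needed for large subunit biogenesis, and in the cytoplasm it holds the finished large subunit apart from the small one until translation begins. Insulin is known to stimulate ribosome production through mTOR and MYC.

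Values are log2 intensities after quantile normalization over all arrays, averaged over the kept probes of a gene. For each mRNA, the mean of the scramble arrays was subtracted from that of the eIF6 shRNA arrays, which gives a polysomal and a subpolysomal change. Translational efficiency is used here for the polysomal change less the subpolysomal one. Calls were made in limma where the adjusted p was under 0.05, with Benjamini-Hochberg adjustment over the 19367 genes tested. The target of the shRNA checked the labels of the polysomal arrays only. The polysomal log2 signal of Eif6 was 12.96, 12.94, 12.96 and 12.94 on the scramble arrays and 11.92, 12.00, 11.85 and 11.81 on the eIF6 shRNA arrays, without overlap, a change of -1.05 ± 0.079 (SE, adjusted p = 1.45e-07 in limma). Its subpolysomal change was 0.02 ± 0.079 (adjusted p = 0.915, 95% interval -0.15 to 0.18), so it gave no check of the subpolysomal labels. Between 20196 and 24960 probes were well above background on each array, and no spot was saturated. Of the hepatocyte markers on the array, Ttr, Apoe, Serpina1a, Hnf4a, Krt8, Krt18 and Cdh1 were above background on all 16 arrays, Alb on 7 and Apoa1 on 3. One pair of polysomal arrays, scramble 4 and eIF6 shRNA 4, deviated from their group means together (r = 0.412 across genes), more than any other pair with the same number, and counts without this pair are given where they differ.

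Each value was read through probes of 60 bases, and the probes of the members with the clearest results are shown by their first 30 bases. The positions are those in the deposited files, in mm9. The probe of Imp3 lies at chr9:56786107-56786166 (plus strand), one Polr1a probe at chr6:71929251-71929310 (plus strand), the bright Polr1b probe at chr2:128951870-128951929 and the dim one at chr2:128946001-128946060 (both plus strand). Of the Nop56 probes, 2 have overlapping positions, chr2:130104982-130105041 and chr2:130104989-130105049 (plus strand), and share part of their bases.
Imp3: gaccgtctggatggagagtttgagttcagt
Polr1a: aaagacagaggctttatgaagccagaccgt
Polr1b, bright probe: gaggtgtcctgtataacacaagtgagggta
Polr1b, dim probe: aatctttgctggctgtatagtgctgagtgg
Nop56, first of the overlapping probes: ggcataccttgtggcagctcctgcccatga
Nop56, second of the overlapping probes: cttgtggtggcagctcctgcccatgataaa

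On polysomes, 5 of the 48 factors fell with the eIF6 shRNA and 0 rose. Those that fell were the RNA polymerase I subunits Polr1a and Polr1e, the large subunit factors Ebna1bp2 and Mrto4, and the small subunit nuclease Nob1. They make up 10.4% of the members, where 10.7% of all genes tested were called lower, so the share of falls was close to the background. The 0 rises stood beside 11.1% of all genes called higher. At an unadjusted p under 0.05, 10 members were lower and 0 higher, beside 14.9% and 16.7% of all genes. With spike-in scaling 0 members were called on polysomes and 5.39% of all genes were called lower. The estimates were further from 0 (Polr1a -1.01, adjusted p = 0.39 in limma, and Ebna1bp2 -0.89, adjusted p = 0.51), but the median of all genes also moved, to -0.48. Against that median Polr1a was -0.53 and Ebna1bp2 -0.41, where the main values gave -0.49 and -0.44. The median change over the members was -0.09, against 0.02 over all genes tested, and 31 of 48 lay below 0. The median came to 0.001 without scramble polysomal array 4 and to -0.16 without eIF6 shRNA polysomal array 4. Without both it was -0.08 and 6 members were called lower, 4 of them among the 5 named here. The count was 2 without eIF6 shRNA polysomal array 3 and 3 without eIF6 shRNA polysomal array 1.

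Polr1a encodes the largest subunit of RNA polymerase I, which forms most of its active centre. Its polysomal log2 signal was 8.69, 8.53, 8.78 and 8.88 in scramble cells and 8.30, 8.12, 8.23 and 8.34 in eIF6 shRNA cells. Every scramble array lay above every eIF6 shRNA array. The change was -0.48 ± 0.094 (SE, adjusted p = 0.00168), which is 1.39-fold lower, and was below 0 within each of the 4 slides. The 2 probes of Polr1a, which lie at different places in the gene, gave polysomal changes of -0.37 and -0.59.

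Ebna1bp2, a nucleolar protein of large subunit precursors, had a polysomal log2 signal of 11.33, 11.37, 11.40 and 11.20 in scramble cells and 11.11, 11.02, 10.69 and 10.80 in eIF6 shRNA cells. The groups did not overlap, and the change was -0.42 ± 0.095 (adjusted p = 0.00429). Its 3 probes gave polysomal changes of -0.49, -0.32 and -0.46. Nob1 is the endonuclease that makes the final cut at the end of 18S rRNA. Its scramble arrays read 9.42, 9.42, 9.53 and 9.53, and its eIF6 shRNA arrays read 9.11, 9.20, 9.03 and 9.03, again without overlap, for a change of -0.38 ± 0.112 (adjusted p = 0.0226). This call was lost without both polysomal arrays numbered 4 (-0.34, adjusted p = 0.0842).

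Mrto4, which resembles the stalk protein P0 and holds its place on immature large subunits, changed by -0.26 ± 0.084 on polysomes (adjusted p = 0.0353). Its scramble arrays read 11.90, 11.98, 11.91 and 11.68 and its eIF6 shRNA arrays 11.64, 11.65, 11.54 and 11.59. These groups lay close to each other without overlapping, and the call was kept in 10 of 16 fits that left out 1 array. Polr1e, the subunit of RNA polymerase I also known as PAF53, changed by -0.24 ± 0.068 (adjusted p = 0.0197). In all, 9 members (18.8%) had every eIF6 shRNA polysomal array below every scramble array, beside 11.4% of all genes, and 0 had the reverse, beside 11.1%.

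**Figure D1:**
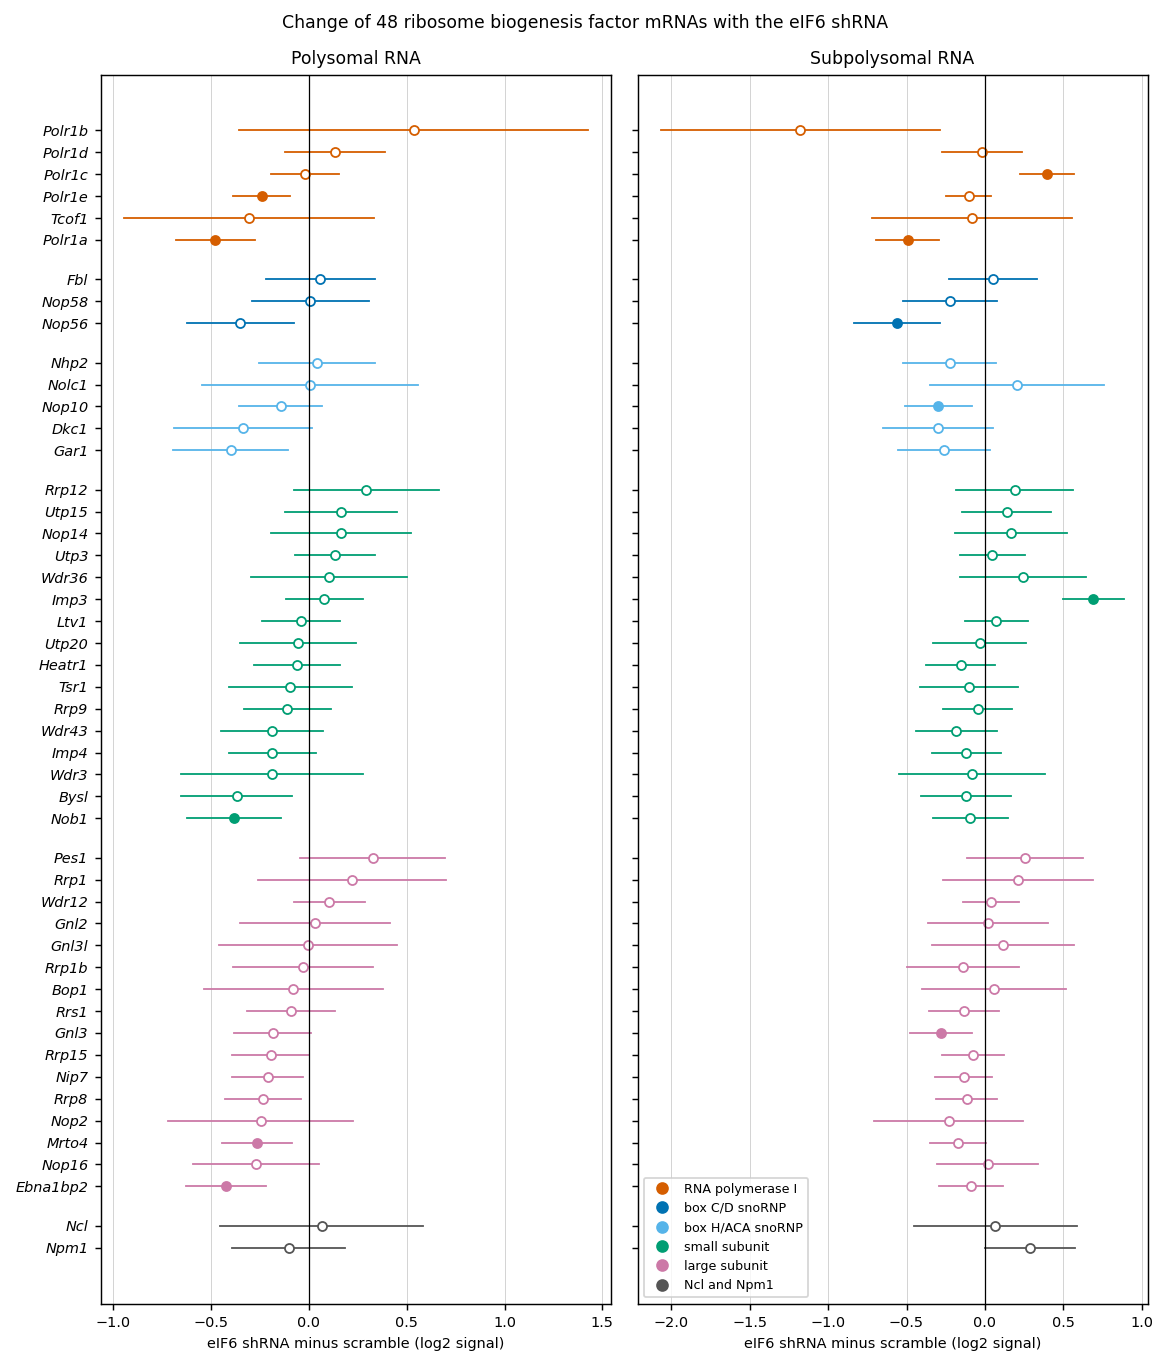
Change with the eIF6 shRNA (eIF6 shRNA minus scramble, log2 signal) of the 48 tested members in polysomal RNA (left) and subpolysomal RNA (right), with 4 arrays per group. Points are the limma estimates with 95% intervals, filled where called and coloured by role. The filled points lie below 0 on polysomes (5) and on both sides of 0 in subpolysomes (4 lower, 2 higher), and the wide bars of Polr1b come from a dim probe.

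In subpolysomal RNA, 4 members fell and 2 rose. Nop56, Polr1a, Nop10 and Gnl3 fell, and Imp3 and Polr1c rose. The 4 falls are 8.33% of the members, beside 12.3% of all genes, and the 2 rises are 4.17%, beside 11.8%, so neither share was above the background. The median was -0.08 over the members and 0.02 over all genes. The count of falls was 2 without scramble subpolysomal array 1, eIF6 shRNA subpolysomal array 1, eIF6 shRNA subpolysomal array 3 or scramble polysomal array 1. With spike-in scaling 0 members were called in subpolysomes, beside 1.79% of all genes called lower and 0.201% called higher. There Imp3 changed by 0.51, Polr1c by 0.18, Nop56 by -0.80 and Polr1a by -0.75 (adjusted p = 0.999 for each). The median of all genes was -0.24 under this scaling, and against it the changes were 0.75, 0.42, -0.56 and -0.51.

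Imp3, a protein of the U3 particle that cuts the 18S precursor, had the largest rise. Its subpolysomal log2 signal was 13.56, 13.65, 13.59 and 13.40 in scramble cells and 14.30, 14.20, 14.27 and 14.20 in eIF6 shRNA cells. The lowest eIF6 shRNA array was above the highest scramble array. The change was 0.69 ± 0.092 (adjusted p = 6.54e-05), or 1.62-fold higher. Imp4 and Rrp9, which belong to the same U3 particle, had subpolysomal changes of -0.12 and -0.05 and were not called.

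Polr1c, a subunit shared by RNA polymerases I and III, rose in subpolysomes by 0.40 ± 0.081 (adjusted p = 0.00228). The scramble arrays read 13.24, 13.16, 13.29 and 13.47 and the eIF6 shRNA arrays 13.75, 13.72, 13.69 and 13.60, with no overlap. Polr1d, its partner in both polymerases, changed by -0.02 ± 0.119 (adjusted p = 0.922).

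Nop56 is a core protein of the box C/D particles that guide rRNA methylation. Its subpolysomal log2 signal was 14.76, 14.56, 14.49 and 14.62 in scramble cells and 14.14, 14.06, 14.10 and 13.88 in eIF6 shRNA cells, without overlap. The change was -0.56 ± 0.128 (adjusted p = 0.00497), with -0.43, -0.68 and -0.58 at its 3 probes. The other core proteins of the particle, the methyltransferase Fbl and Nop58, changed by 0.05 and -0.22 and were not called.

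Polr1a fell in subpolysomes as well, from 8.93, 8.90, 8.99 and 9.23 to 8.45, 8.48, 8.55 and 8.60, a change of -0.49 ± 0.094 (adjusted p = 0.00144). It was the only one of the 48 called in both fractions. Its change in translational efficiency was 0.02 with a 95% interval of -0.27 to 0.30. Nop10, a small protein of the box H/ACA particles, read 14.26, 14.14, 14.13 and 14.20 in scramble subpolysomes and 13.82, 13.91, 13.73 and 14.08 with the eIF6 shRNA, a change of -0.30 ± 0.099 (adjusted p = 0.0413). Gnl3 (nucleostemin), a nucleolar GTPase, read 12.28, 12.06, 12.15 and 12.48 in scramble cells and 12.00, 12.05, 11.93 and 11.86 with the eIF6 shRNA, a change of -0.28 ± 0.092 (adjusted p = 0.038). The groups of these last 2 mRNAs nearly touched, and their calls were kept in 6 and 10 of the 16 fits that left out 1 array. Both calls were lost with scaling to the 75th percentile (adjusted p = 0.269 for Nop10 and 0.12 for Gnl3 in limma) and without the detection filter (0.0604 and 0.0541). They were also lost with the replicate number as a block (0.0692 and 0.0554). Over all members, 7 (14.6%) were lower in subpolysomes without overlap, beside 15.9% of all genes, and 3 (6.25%) were higher, beside 15.6%. The 7 include Polr1b, whose mean rests on a dim probe.

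**Figure D2:**
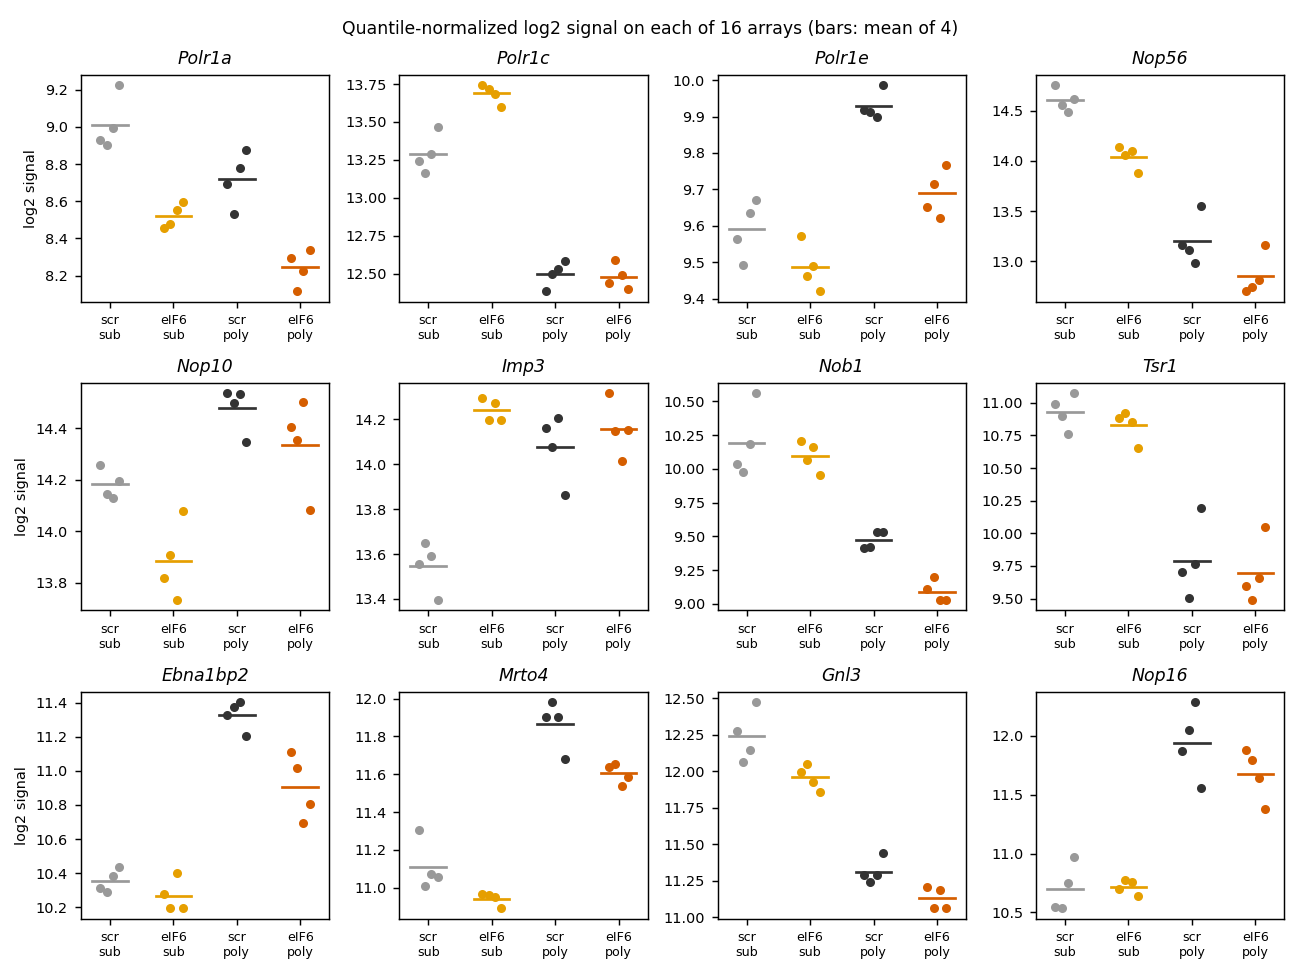
Quantile-normalized log2 signal of 12 members on each of the 16 arrays, as points for scramble (scr) and eIF6 shRNA (eIF6) cells in subpolysomal (sub) and polysomal (poly) RNA, with bars at the mean of 4 and axes that do not start at 0. Imp3 and Polr1c stand higher in subpolysomes with the eIF6 shRNA, Polr1a stands lower in both fractions, and Ebna1bp2, Nob1, Mrto4 and Polr1e stand lower on polysomes.

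A change in translational efficiency was called for 1 member, Imp3, which is 2.08% of the members beside 1.1% of all genes called lower. None was called higher (0.403% of all genes). At an unadjusted p under 0.05 there were 3 lower and 1 higher, beside 7.36% and 5.14% of all genes. The 1 higher was Polr1b, whose value rests on a dim probe, as described below. In scramble cells the Imp3 signal was 0.53 higher on polysomes than in subpolysomes, and in eIF6 shRNA cells the difference was -0.08. The polysomal arrays themselves read 14.16, 14.08, 14.21 and 13.86 in scramble cells and 14.32, 14.15, 14.01 and 14.15 in eIF6 shRNA cells, and these overlapped. Their change was 0.08 ± 0.092 (adjusted p = 0.631), beside the called rise of 0.69 in subpolysomes. The change in translational efficiency came to -0.61 ± 0.130 (adjusted p = 0.0296, 95% interval -0.89 to -0.33), below 0 within each of the 4 slides. This call was kept in 6 of 16 fits that left out 1 array, with adjusted p between 0.00957 and 0.0799. It was lost when each culture, taken as shRNA and replicate number, had its own fixed term in the model (adjusted p = 0.0834). It was also lost with spike-in scaling, where the change was -0.88 and the median over all genes -0.21. The fits leaving out 1 array that lost it were those without scramble subpolysomal 1, 3 or 4, scramble polysomal 1, 2 or 3, eIF6 shRNA subpolysomal 1 or 3, or eIF6 shRNA polysomal 2 or 3.

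Polr1c had the next largest change, -0.42 ± 0.115 (adjusted p = 0.101, 95% interval -0.66 to -0.17), and was not called. Its polysomal arrays overlapped, at 12.38, 12.50, 12.53 and 12.58 in scramble cells and 12.44, 12.59, 12.49 and 12.40 in eIF6 shRNA cells. The polysomal falls of Ebna1bp2 and Nob1 had changes in translational efficiency of -0.33 (adjusted p = 0.306) and -0.29 (adjusted p = 0.499), so a difference from their subpolysomal change was not shown. The median over all members was -0.02, with 0.02 over all genes.

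Many of the 48 members, called ones included, had changes that the arrays could bound. A 95% interval inside a 1.5-fold change in either direction was found for 33 of 48 members on polysomes (68.8%, and 49.9% of all genes), for 37 in subpolysomes (77.1%, and 46% of all genes) and for 25 in translational efficiency (52.1%, and 38.2% of all genes). The SE of a member's change in a fraction was 0.133 at the median, between 0.068 and 0.416. The members were brighter than most genes. On scramble subpolysomal array 1, for example, their median log2 signal was 11.48, against 7.72 over all genes. The shares were not matched for signal, so they are not shown to be particular to these mRNAs. In all, 38 members were called in none of the comparisons between the shRNAs. The same share over all genes was not computed, so this count has no background here. The best probe of all 48 was above background on all 16 arrays.

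**Figure D3:**
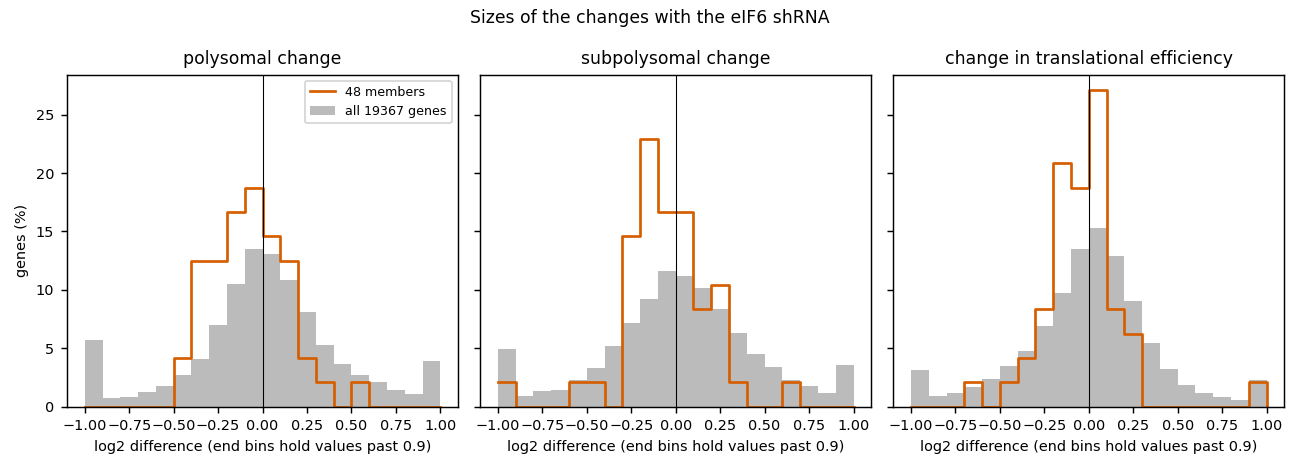
Share of genes (%) in bins of 0.1 log2 for the polysomal change, the subpolysomal change and the change in translational efficiency, as grey bars for all 19367 genes and an orange line for the 48 members. The end bins hold every value past 0.9. The members lie near 0, with medians of -0.09, -0.08 and -0.02, and in the end bins only Polr1b appears.

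By role, the 16 large subunit factors had a median polysomal change of -0.14, with 12 below 0 and 2 called. Pes1, Bop1 and Wdr12, which form 1 complex in large subunit processing, changed by 0.33, -0.08 and 0.11 without a call. Rrp8 and Nip7, which act in large subunit processing, had polysomal changes of -0.23 (adjusted p = 0.0844) and -0.21 (adjusted p = 0.0981). The rRNA methyltransferase Nop2, the GTPases Gnl2 and Gnl3l, and Rrs1, Rrp1, Rrp1b and Rrp15 lay between -0.25 and 0.22 on polysomes. Nop16 changed by -0.27 there and Gnl3 by -0.18, neither called.

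The 16 small subunit factors tested had a median polysomal change of -0.06, with 10 below 0 and 1 called. Bysl, which works beside Nob1 and Ltv1 on late small subunits, changed by -0.37 ± 0.133 without overlap between the groups and with an adjusted p of 0.0633. Ltv1 changed by -0.04. The processome proteins Heatr1, Utp3, Utp15, Utp20, Wdr3, Wdr36, Wdr43 and Nop14 changed by between -0.19 and 0.17 on polysomes, and none was called in either fraction. Rrp12, Rrp9, Imp3, Imp4 and Tsr1 lay between -0.19 and 0.29 on polysomes.

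Among the box H/ACA proteins, the pseudouridine synthase Dkc1 changed by -0.34 on polysomes (adjusted p = 0.181), Gar1 by -0.40 (adjusted p = 0.0524, without overlap) Nhp2 by 0.04 and the chaperone Nolc1 by 0.01. The box C/D protein Nop56 changed by -0.35 on polysomes (adjusted p = 0.069). Ncl and Npm1, which are abundant in the nucleolus, changed by 0.07 and -0.10 on polysomes and by 0.07 and 0.29 in subpolysomes, none of them called. Tcof1 (treacle), which binds RNA polymerase I in the nucleolus, changed by -0.30 on polysomes with an SE of 0.298, and Polr1c and Polr1d by -0.02 and 0.14.

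Polr1b, the second-largest subunit, is a case of its own. Its mean over the probes changed by 0.54 on polysomes and -1.18 in subpolysomes, with a change in translational efficiency of 1.71 that is the highest among the members. These values rest on the dim probe, which was above background on 2 of 4 scramble subpolysomal arrays, 1 of 4 eIF6 shRNA polysomal arrays and 0 in the other groups. The bright probe alone gave -0.22 ± 0.165 on polysomes, -0.25 ± 0.165 in subpolysomes and 0.03 in translational efficiency, none of them called.

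Scramble cells also show where these mRNAs lay on the gradient. The difference between polysomal and subpolysomal signal tells how an mRNA stands against the other genes of the array, since the normalization gives all arrays the same distribution. By this measure 17 members were lower on polysomes and 12 higher, or 35.4% and 25% of the members, beside 28.4% and 31.7% of all genes. The direction is relative, since scaling to spike-in probes moved the median of all genes to 1.52 and normalizing each fraction on its own moved it to 1.38, with 0 members lower and 38 and 46 higher. These are 79.2% and 95.8% of the members, beside 68.8% and 81.5% of all genes called higher under the same scalings. Set against the median of all genes, 28 of the 29 called members stayed on their side under both of these scalings. The median over the members was -0.07 relative to all genes in the main values and 0.25 and 0.27 under the 2 scalings, so the place of the whole set changed side, and only the spread within it is described below.

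The members spread widely. Nop56, Tsr1 and Gnl3 were the lowest of the members whose every probe was above background on all 16 arrays, and Nop16, Ebna1bp2 and Mrto4 the highest. Nop56 read 14.76, 14.56, 14.49 and 14.62 in subpolysomes and 13.16, 13.12, 12.99 and 13.55 on polysomes, a difference of -1.40 ± 0.128 (adjusted p = 2.85e-07), which turned to 0.42 with spike-in scaling and 0.25 when the fractions were normalized apart, and was between -1.44 and -1.11 against the median of all genes under the 6 scalings tried.

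Tsr1, which blocks early joining of the large subunit on cytoplasmic small subunit precursors, read 10.99, 10.90, 10.76 and 11.07 in subpolysomes and 9.71, 9.50, 9.76 and 10.20 on polysomes. Its difference was -1.14 ± 0.147 (adjusted p = 9.15e-06), which turned to 0.70 and 0.57 under those 2 scalings and stayed between -1.23 and -0.81 against all genes. That of Gnl3 was -0.93 ± 0.092 (adjusted p = 6.68e-07), turning to 1.01 and 0.88, and lay between -1.01 and -0.50 against all genes. Its polysomal arrays in scramble cells read 11.29, 11.24, 11.29 and 11.44. The fractions did not overlap for any of the 3.

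Nop16, a large subunit factor, read 10.54, 10.54, 10.75 and 10.97 in subpolysomes and 11.87, 12.05, 12.29 and 11.56 on polysomes, a difference of 1.24 ± 0.151 (adjusted p = 5.1e-06). Ebna1bp2 read 10.32, 10.29, 10.38 and 10.44 in subpolysomes, against the polysomal values given above, a difference of 0.97 ± 0.095 (adjusted p = 5.56e-07). Mrto4 read 11.31, 11.01, 11.07 and 11.06, with a difference of 0.76 ± 0.084 (adjusted p = 1.99e-06). These 3 were above the median of all genes under each of the 6 scalings. The probes of Ebna1bp2 disagreed in size, with 0.15, 1.45 and 1.31, as did those of Polr1a, with -0.60 and 0.02.

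Proteins of 1 particle did not all have the same place. The box C/D partners of Nop56, Fbl and Nop58, differed by -0.003 and -0.02 and were not called. Of the RNA polymerase I subunits, Polr1c and Polr1d, which it shares with polymerase III, differed by -0.79 and -0.87 and Polr1e by 0.34. The bright probe of Polr1b differed by -0.92 (adjusted p = 0.000199). Among the small subunit factors, Heatr1, Wdr43 and Nob1 differed by -0.91, -0.71 and -0.71, and Ltv1, Imp3 and Imp4 by 0.62, 0.53 and 0.53. Nhp2 and Nop10 of the box H/ACA particle differed by 0.59 and 0.30. Each of these was called except those of Fbl and Nop58, and the negative ones are lower only against the other genes, as said of the scalings above. In scramble cells, 14 members (29.2%) were lower on polysomes without overlap, beside 25.8% of all genes, and 12 (25%) were higher, beside 28.8%. The 14 include Polr1b, read as the mean with its dim probe.

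The differences on the gradient were also read in eIF6 shRNA cells, on other arrays with the same probes. Of the 29 called members, 26 had eIF6 shRNA arrays that were apart in the same direction, 3 overlapped and 0 were apart in the other direction. The 26 are 89.7% of the called members, beside 79.6% of the 11620 genes called in scramble cells for which this could be read. These shares, too, were not matched for signal, which was higher in the members. The exceptions were Imp3, Rrp15 and Polr1b. Across the 48 members the differences in both kinds of cells had a Pearson r of 0.88, and of 0.956 for 47 members without Polr1b, beside 0.884 across 19338 genes. These are correlations across genes that share probes, fractions and normalization, and the genes are not independent replicates.

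**Figure D4:**
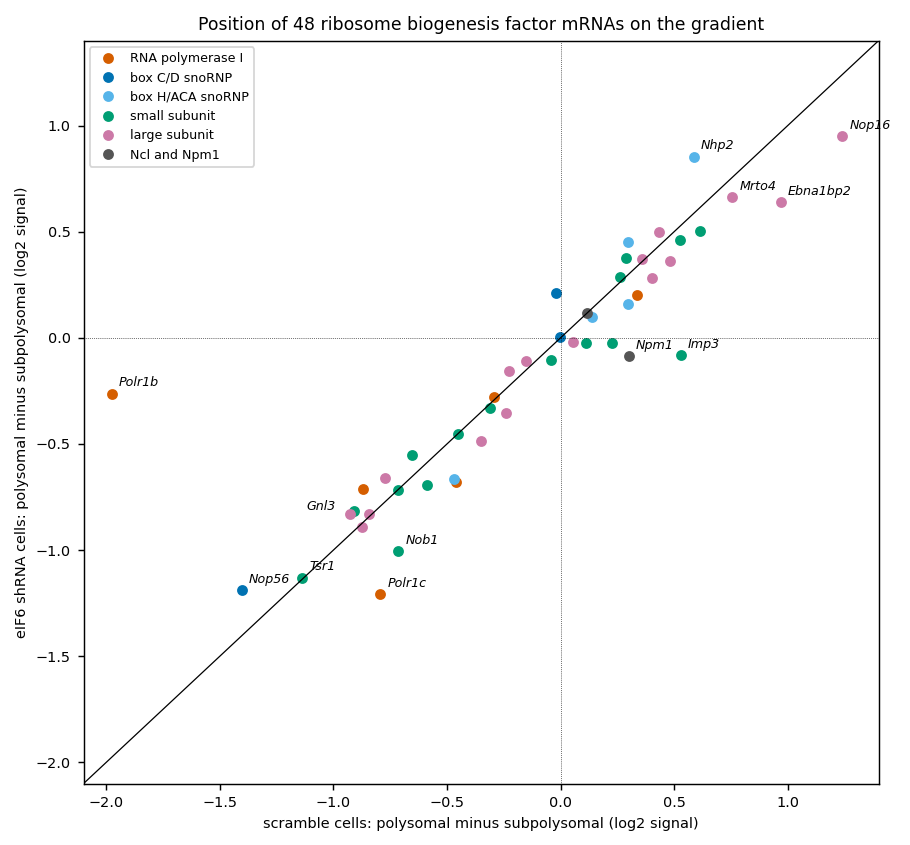
Polysomal minus subpolysomal log2 signal (mean of 4 arrays each) of the 48 members in scramble cells (horizontal) and eIF6 shRNA cells (vertical), coloured by role, with the line of equal values. Most points lie near the line, Imp3 (0.53 and -0.08) and Polr1b (-1.98 and -0.26, with a dim probe) lie off it, and the signs are relative to the other genes of the array: those of Nop56, Tsr1 and Gnl3 turn with spike-in scaling or when each fraction is normalized on its own.

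Other genes of the same route were read from 5 lists. Of 30 other small subunit factors, 5 fell on polysomes and 0 rose, and 3 fell in subpolysomes. The acetyltransferase Nat10 changed by -0.59 on polysomes and -0.90 in subpolysomes. The methyltransferase Emg1, which is also needed for 18S rRNA, changed by -0.42 and -0.41, called in both fractions. Tsr2 changed by -0.46 in subpolysomes. Of 30 other large subunit factors, 1 fell on polysomes (Ppan, -0.26) and 3 rose, among them Gltscr2 (0.63) and Zfp622 (0.47). In subpolysomes Ppan fell and Gltscr2 and Nsa2 rose, the latter by 0.72, and Nsa2 was the 1 gene of the 5 lists with a called change in translational efficiency (-0.42, adjusted p = 0.0408). These counts and those of the lists that follow are to be set beside the shares of all genes. On polysomes 10.7% of all genes were called lower and 11.1% higher, and in subpolysomes 12.3% and 11.8%. In translational efficiency 1.1% were called lower.

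Of 14 other RNA polymerase I genes tested, 1 rose on polysomes, the transcription factor Ubtf (0.65, adjusted p = 4.82e-05), which also rose in subpolysomes (0.31). Polr2h and Twistnb fell in subpolysomes, by 0.53 and 0.28 on the log2 scale. Of 14 RNA exosome genes, which degrade and trim rRNA precursors, 3 fell on polysomes, led by Exosc8 (-0.49) and Dis3 (-0.40), and 1 rose, Exosc9 (0.69). In subpolysomes Exosc8 fell and Exosc9 rose. Of 9 snoRNP assembly genes, Nufip1 alone was called between the shRNAs, at 0.45 on polysomes. On the gradient in scramble cells, against the other genes, 10 of the 30 small subunit factors were lower and 8 higher. Of the 30 large subunit factors, 15 were lower and 4 higher. Of the 14 RNA polymerase I genes, 5 were lower and 3 higher, of the 14 exosome genes 5 and 7, and of the 9 assembly genes 4 and 2. Beside these stood 28.4% of all genes called lower and 31.7% called higher. With spike-in scaling or each fraction normalized on its own these directions shift with all genes, as above.

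Markers of other cells and states moved with the shRNA. Of 9 mesenchymal markers, 8 fell on polysomes (median -2.96) and 7 in subpolysomes. Their summed log2 level was 17.39 to 18.13 on scramble and 14.82 to 15.48 on eIF6 shRNA polysomal arrays, and 17.07 to 17.16 and 15.92 to 16.22 in subpolysomes. The change in translational efficiency of these markers was below 0 for all 9 (median -1.25), and 3 were called lower, beside 1.1% of all genes. Of 12 cell cycle markers, all lay below 0 on polysomes and 3 were called, with Ccna2 at -0.66, and 4 were called lower in subpolysomes. Their summed log2 level was 15.84 to 16.52 and 15.56 to 16.16 on polysomal arrays, which overlap, and 15.88 to 15.92 and 15.62 to 15.79 in subpolysomes. Of 9 hepatocyte markers 1, Ttr, rose in both fractions. None of 5 blood and endothelial markers tested was called between the shRNAs, and Lyz2 and Cdh5 did not pass the detection filter. The part of these shifts in the changes of the ribosome biogenesis factors was not tested. In bulk RNA, fewer cells of a type and less RNA per cell cannot be told apart.

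RefSeq promoter windows (GRCm38.p6, from 250 bases before to 50 after the start) were matched for 40 of the 49 members. The E-box CACGTG, which reads the same on both strands and is bound by MYC among other factors, was in 8 of them (20%), beside 8.09% of 27025 genes with a window. Those 8 were Wdr43, Utp18, Utp20, Imp4, Ltv1, Tsr1, Pes1 and Nop2. Of the 7 with the motif that were tested on the arrays, 0 were called in a comparison between the shRNAs. The 27025 genes were not matched to the members for signal or base composition, so the higher share is not shown to be particular to these mRNAs. A part of MYC in their changes was not tested. Where the motif lay before the start with room on both sides, the 30 bases around it are shown with the motif in capitals. Imp4 is on the plus strand at chr1:34439696-34439725, with the motif 121 bases before the start. Nop2 is on the plus strand at chr6:125131811-125131840, with the motif 60 bases before the start. Utp18 is on the minus strand at chr11:93885769-93885798, with the motif 20 bases before the start.
Imp4: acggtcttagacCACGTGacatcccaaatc
Nop2: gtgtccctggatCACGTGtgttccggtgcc
Utp18: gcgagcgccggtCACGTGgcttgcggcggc

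A window whose first transcribed base is C followed by at least 4 pyrimidines, as at the start of a terminal oligopyrimidine tract, was found for 1 member, Utp3 (2.5%, and 3.01% of all genes). The polysomal change of Utp3 was 0.13 ± 0.097. These matches are of letters in a window and say nothing of binding.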

How the data were processed

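The authors deposited one Feature Extraction file per array, with a background-corrected intensity per spot (gProcessedSignal) that is not normalized between arrays, and a table of log2 values that they had quantile normalized, which was used as an alternative only. The file headers give Feature Extraction 10.7.3.1 and the submitters' processing notes 10.7.7.1. Outlier spots were left out (82 probe values missing), repeated spots of a probe were averaged, which gave 39429 probes, and 25262 probes well above background on at least 2 of 4 arrays of a group were kept. Intensities were quantile normalized on the log2 scale over 16 arrays and averaged per gene name. limma 3.58.1 in R 4.3.3 was fitted with 4 group means. The number of arrays limits the precision. The procedure was tested on simulated data. Members and lists were chosen with earlier results of these data known. Full values are given for members called and above background on all 16 arrays, up to 4 in each direction (3 for the gradient), and for the 2 largest changes where fewer than 2 were called. Other members are given by role. Alternatives were spike-in scaling (8 probes), the 75th percentile of each array, quantile normalization by fraction, normexp (offset 50), other filters, the brightest probe, slide and replicate blocks, and each array left out. Leaving out both polysomal arrays numbered 4 was added after the data were seen. Each of the 4 slides held 1 array of every group.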

Additional observations from a re-analysis of the deposited data

Results flagged for a closer look

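The eIF6 shRNA effect on Imp3 differed between the fractions, with 0.08 on polysomes and 0.69 in subpolysomes. The test of the difference itself gave -0.61 (adjusted p = 0.0296 in limma), with the same sign within each of the 4 slides. The call was lost with a fixed term for each culture (adjusted p = 0.0834) and with spike-in scaling (-0.88, beside a median of -0.21 over all genes). It was kept in 6 of 16 fits that left out 1 array. By a rule on the ratio of gap to range, none of the 44 groups of 4 arrays examined for 11 named genes held an outlying array. With 4 arrays this rule finds only an array far from the others, so it says little about the quality of the arrays. The 11 genes were taken from called members, which favours a small spread within groups. Other members were not examined, such as Nop2, whose scramble polysomal arrays read 13.536, 13.395, 13.389 and 14.531.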

How the results depend on the processing

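Over all alternatives, single named members kept direction and side of the threshold in 432 comparisons, lost a call in 53, gained one in 3 and turned in 6. The 6 turns were on the gradient, where Nop56, Tsr1 and Gnl3 gave 0.4163, 0.6952 and 1.0118 with spike-in scaling and 0.2467, 0.5717 and 0.8827 with the fractions normalized apart. With spike-in scaling 0 members were called lower in any comparison or higher in subpolysomes, 38 were higher on the gradient, and the medians were -0.55, -0.35, -0.24 and 1.78 (polysomal, subpolysomal, translational efficiency and gradient), beside -0.48, -0.24, -0.21 and 1.52 over all genes. With each fraction normalized on its own, 0 were lower and 46 higher on the gradient (median 1.66). The 75th percentile gave 2 falls in subpolysomes (4.17%, beside 9.31% of all genes). It gave 2 in translational efficiency (4.17%, beside 2.55%) and a median of -0.0778 there, beside -0.0491 over all genes. Normexp gave 8 polysomal falls (16.7%, beside 11% of all genes), 5 of them shared, and 2 in translational efficiency (4.17%, beside 2.01%). Quantile normalization cannot show a shift common to all genes.

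Arrays with the same replicate number had correlations of deviations from -0.211 to 0.412. These cannot show whether the fractions with 1 number came from 1 culture, and the main fit treats all arrays as independent. The replicate block left 2 falls in subpolysomes, and the block by culture left 0 in translational efficiency. Leaving out 1 array gave 2 to 7 falls and 0 to 1 rises on polysomes (median -0.1625 to 0.001), 2 to 5 falls and 2 to 3 rises in subpolysomes (median -0.0888 to -0.0494), 0 to 1 falls in translational efficiency (median -0.1035 to 0.0721), and 13 to 21 lower and 12 to 13 higher on the gradient (median -0.1198 to 0.0002). Without both polysomal arrays numbered 4 the gradient median was -0.1198, with 23 lower. Counts from the fits of this paragraph are given without the shares of all genes.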
